A study of Mus musculus with 48 samples.

Results

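The DBHS family consists of Nono, Sfpq and Pspc1, and 4 further genes whose products are found in paraspeckles were described with it: the long noncoding RNA Neat1 and the RNA-binding proteins Tardbp, Ewsr1 and Matr3. These 7 genes were chosen by symbol out of the 24453 genes of an exon table, and 6 of them, all but Neat1, were also among the 20771 genes of an intron table. They were measured by RNA sequencing of livers from nono-/- mice, written Nono-/- here, and from wild-type mice. The labels do not name the allele behind this genotype. All mice were C57BL/6, 14 weeks old, on a cycle of 12 h light to 12 h dark, with food given in the dark phase alone. Livers were taken at 12 time points 2 h apart, written as zeitgeber time (ZT), which counts the hours since the lights came on; each sample was a pool of 2 mice, and each pool gave 1 library of total RNA and 1 of nuclear RNA. There were thus 12 Nono-/- and 12 wild-type total RNA libraries, and 12 Nono-/- and 12 wild-type nuclear RNA libraries, 48 in all.

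Paraspeckles are bodies of the mammalian cell nucleus that assemble on the long form of Neat1. The DBHS proteins, named for their Drosophila behaviour/human splicing domain, bind one another as homodimers and heterodimers, and those with Sfpq and Nono are needed for stable Neat1 and for paraspeckle assembly in cultured cells. Nono has also been described as a partner of the circadian clock protein Per1, and Sfpq and Nono act in transcription, splicing and the retention of RNA in the nucleus.

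RefSeq promoter sequences (GRCm38.p6) were at hand for 5 of the 7 genes. The 250 bases before the RefSeq start of Pspc1 and Sfpq are shown because the introns of both genes were higher in Nono-/- nuclei, as described below. Pspc1 lies on the minus strand, with this window at chr14:56778319-56778568, and Sfpq on the plus strand, at chr4:127021051-127021300. Capitals mark each CCAAT (or ATTGG, its reverse complement) and each CGCANGCG, the middle of the palindrome bound by the factor NRF1, on either strand.
Pspc1: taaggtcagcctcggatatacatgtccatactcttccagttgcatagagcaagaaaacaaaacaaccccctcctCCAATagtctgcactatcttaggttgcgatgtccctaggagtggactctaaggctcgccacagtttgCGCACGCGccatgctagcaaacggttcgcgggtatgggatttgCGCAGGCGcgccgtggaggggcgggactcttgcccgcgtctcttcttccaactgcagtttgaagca
Sfpq: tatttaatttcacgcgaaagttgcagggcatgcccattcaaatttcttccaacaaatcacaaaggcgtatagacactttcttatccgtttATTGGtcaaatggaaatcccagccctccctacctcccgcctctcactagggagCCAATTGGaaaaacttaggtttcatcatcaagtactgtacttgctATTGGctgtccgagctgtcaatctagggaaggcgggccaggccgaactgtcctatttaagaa
The Pspc1 window holds CGCANGCG at 2 places and CCAAT at 1, and the Sfpq window holds CCAAT at 4 places, a pair of them overlapping, and no CGCANGCG. Of 32851 RefSeq windows of this length, 6.76% hold CGCANGCG and 33.9% hold CCAAT on either strand. GGGCGG, in 32.7% of windows, was found once in the Pspc1 window and not in that of Sfpq. On either strand, neither window held TGACG or the longer TGACGTCA that contains it, nor did it hold the E-box CACGTG or the YY1 motif GCCATNTTG. The heat shock motif TTCNNGAA was also not found, and the same held for the ETS motif CCGGAAG and for the TATA box as TATAAA. Of all windows, 17.8% hold TGACG, 1.55% TGACGTCA and 6.02% CACGTG; GCCATNTTG is in 1.33%, TTCNNGAA in 7.17%, CCGGAAG in 6.91% and TATAAA in 12.4%. A match of letters is a description of the sequence only.

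The values are FPKM, fragments per kilobase of exon or intron scaled to the mapped reads of the library, as the authors deposited them. Whole reads could be read back from the low values and gave the depth. Libraries of total RNA held between 9.91 and 22.5 M reads for Nono-/- and between 11.8 and 23.9 M reads for wild type (M, mega). Those of nuclear RNA held between 12.6 and 28.8 M reads for Nono-/- and between 14.7 and 21.6 M reads for wild type. Introns took 18.5% ± 2.41 of the reads in Nono-/- total RNA and 22.1% ± 1.72 in wild-type total RNA (SD, n = 12 each). In nuclear RNA they took 74.6% ± 1.16 in Nono-/- and 73.2% ± 2.14 in wild type. The 6 hepatocyte markers summed to 41588 ± 4179.5 FPKM in Nono-/- total RNA and 40892 ± 5541 FPKM in wild-type total RNA, and 0 of 6 passed the test. The 8 Kupffer cell markers summed to 165 ± 43.1 FPKM (90.8 to 242) in Nono-/- and 127 ± 35.2 FPKM (73.5 to 186) in wild type, none was at 0, and 5 of 8 were higher. Of the 5 stellate cell markers 1 was higher and of the 6 endothelial markers 0 changed, while the 5 lymphocyte markers summed to about 1.14 FPKM in Nono-/- and 0.871 FPKM in wild type. In a bulk sample, fewer cells of a type and less RNA per cell cannot be told apart, and the part of these markers in the results below was not tested. As a check of the fractions, 5 nuclear RNAs, the noncoding RNAs Malat1 and Neat1 among them, were summed in the nuclear libraries. They came to 3339 ± 315 FPKM in Nono-/- and 2616 ± 248 FPKM in wild type. A set of 5 cytoplasmic mRNAs came to 1430 ± 450 FPKM in Nono-/- nuclei and 1790 ± 431 FPKM in wild-type nuclei. The purity of the nuclear fraction may thus differ by genotype, and its part in the nuclear results below was not tested.

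Nono, the gene that the nono-/- label names, encodes a DBHS protein and lies on the X chromosome (mm10 chrX:101429651-101448593, plus strand). Its exons were at 0 in 8 of 12 Nono-/- total RNA libraries, and all 12 together held 8 reads, against 5378 reads in wild type. The 12 Nono-/- libraries lay between 0 and 0.091 FPKM (median 0), against 8.74 to 10.7 FPKM (median 9.996) in wild type, so the genotypes did not overlap. Nuclear RNA gave 4 reads in Nono-/- and 1334 in wild type. The gene Itgb1bp2, which starts 516 bases beyond the end of Nono, was also lost. Its exons and introns held 0 reads in all 24 Nono-/- libraries, against 363 exon reads and 744 intron reads in the wild-type nuclear libraries and 76 and 146 in those of total RNA. Loss of Nono and loss of Itgb1bp2 cannot be told apart in the comparisons that follow. Nono introns were still detected. They averaged 0.437 ± 0.0875 FPKM in Nono-/- nuclei and 1.42 ± 0.124 FPKM in wild-type nuclei, so that 30.8% of the wild-type level was left, and 24.0% was left in total RNA. The highest Nono-/- nucleus had 0.567 FPKM of Nono introns, below the lowest wild-type one with 1.19 FPKM. Wild-type Nono mRNA was even over the day, with a coefficient of variation of 5.97% in total RNA, and it had the lowest nuclear to total ratio of the 7 genes in wild type, 0.257 ± 0.0205.

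**Figure D1:**
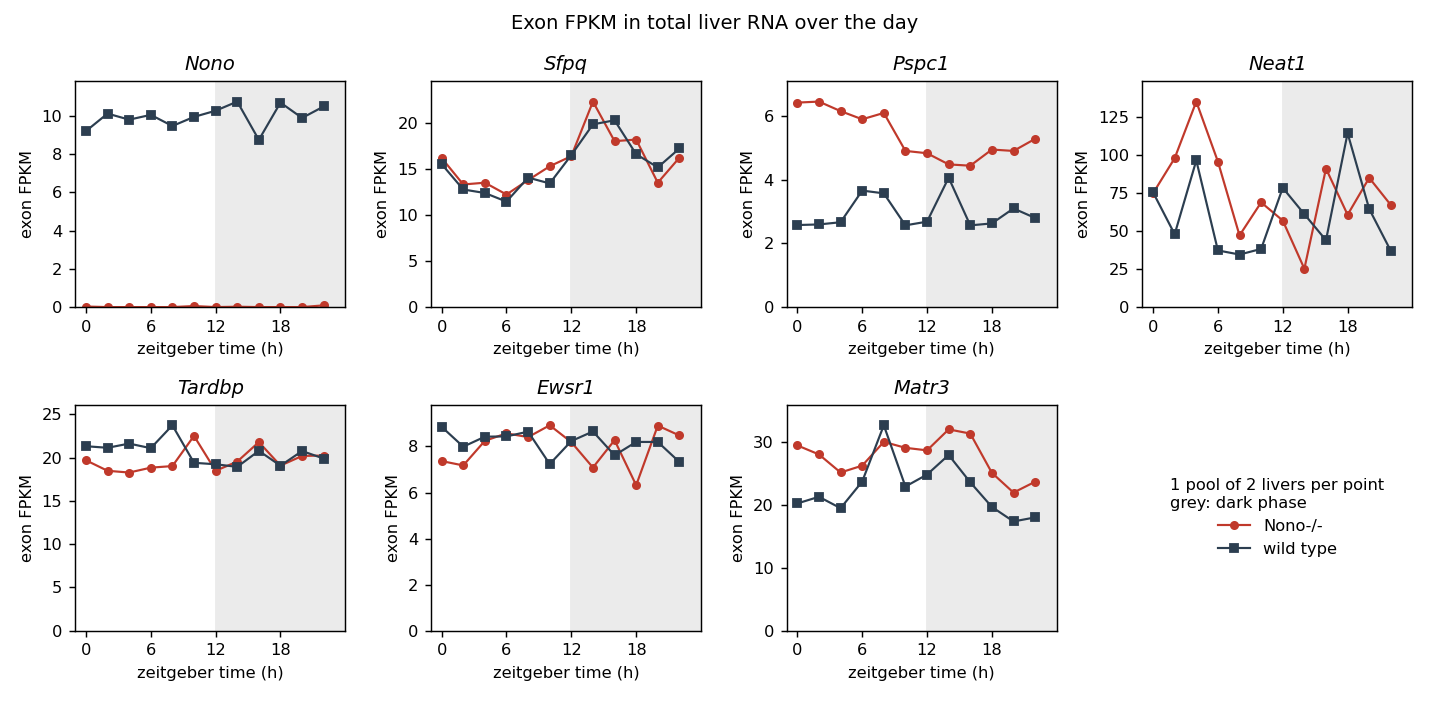
Exon FPKM of the 7 genes in total liver RNA at each zeitgeber time (x axis, hours), with Nono-/- in red and wild type in dark blue. Each point is 1 pool of 2 livers. Pspc1 is at 4.43 to 6.45 FPKM in Nono-/-, above all wild-type pools, and Sfpq has its highest values in the early dark in both genotypes.

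Pspc1, the least abundant DBHS gene in wild-type total RNA (mm10 chr14:56722449-56778316, minus strand), was higher without Nono. Its mRNA in total RNA lay between 4.43 and 6.45 FPKM (median 5.11) in Nono-/- and between 2.56 and 4.06 FPKM (median 2.67) in wild type. Every one of the 12 Nono-/- pools was above every wild-type pool, and the share of all genes that separate in this way is not given. The means were 5.39 ± 0.753 FPKM in Nono-/- and 2.95 ± 0.521 FPKM in wild type, 1.83-fold. On the scaled log2 scale the difference was 0.83 ± 0.08 (SE, adjusted p = 2.12e-06, limma over 11352 genes), higher at 12 of 12 time points, and 36 of the 11352 genes had a larger rise. Of the 6 genes other than Nono, 2 passed in total exons, Pspc1 and Matr3, both higher, against 11.1% of all genes tested, of which 4.49% passed as higher and 6.57% as lower.

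The size of the Pspc1 difference varied over the day. Pspc1 was 2.49-fold higher in Nono-/- at ZT0, where Nono-/- had 6.41 FPKM and wild type 2.57 FPKM, and 2.49-fold higher at ZT2. At ZT14 it was 1.103-fold higher, with 4.48 FPKM in Nono-/- and 4.06 FPKM in wild type, and that wild-type pool was the highest of its group. The difference in rhythm did not pass (adjusted p = 0.473), nor did a Pspc1 rhythm in Nono-/- (peak to trough 0.43 ± 0.16 log2, adjusted p = 0.0974) or in wild type (0.24 ± 0.16 log2, adjusted p = 0.442). The Pspc1 rhythm in Nono-/- did pass without scaling (0.505 log2, adjusted p = 0.0384). With the intron share of the reads as a covariate, a rhythm of its nuclear introns in Nono-/- passed (0.32 log2, adjusted p = 0.0499).

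Pspc1 introns, which stand for unspliced RNA, were also higher in Nono-/- nuclei, by less than the mRNA. They lay between 2.51 and 3.86 FPKM (median 3.34) in Nono-/- and between 2.06 and 2.997 FPKM (median 2.50) in wild type. Of the 12 Nono-/- nuclei, 10 were above all wild-type ones, again without a share of all genes beside it. The difference was 0.38 ± 0.07 log2 (adjusted p = 0.00231, higher at 11 of 12 time points). In total RNA, Pspc1 introns had 0.578 ± 0.109 FPKM in Nono-/- and 0.618 ± 0.129 FPKM in wild type. After scaling they differed there by 0.15 ± 0.07 log2 and did not pass (limma adjusted p = 0.111). Of the 5 genes other than Nono with an intron entry, 2 passed in nuclear introns, Pspc1 and Sfpq, both higher, against 17.9% of 12055 genes, of which 8.48% passed as higher and 9.46% as lower. The ratio of total exon to nuclear intron FPKM averaged 1.68 ± 0.225 in Nono-/- and 1.18 ± 0.144 in wild type for Pspc1. This ratio differed by 0.46 ± 0.09 log2 (adjusted p = 0.00591, higher at 11 of 12 time points), and Pspc1 was the 1 gene of 5 that passed, against 7.74% of 10492 genes, 2.77% higher and 4.97% lower. With the intron share of the reads as a covariate the ratio difference was 0.55 with adjusted p = 0.116, while the mRNA difference in total RNA still passed.

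In nuclear RNA the exons of Pspc1 stood at 6.79 ± 0.806 FPKM in Nono-/- and 6.10 ± 0.786 FPKM in wild type. The scaled difference was 0.36 ± 0.07 log2 (adjusted p = 0.00163). The scaling matters here. The median gene shifted by -0.21 log2 between the genotypes in nuclear exons and by -0.26 log2 in total introns, and changes are given relative to it. Without scaling, the Pspc1 difference in nuclear exons was 0.15 log2 (adjusted p = 0.115). The nuclear to total ratio of Pspc1 was 1.28 ± 0.196 in Nono-/- and 2.11 ± 0.386 in wild type, where the median gene stood at 0.360 in Nono-/- and 0.421 in wild type. It was lower in Nono-/- at 12 of 12 time points, by -0.47 ± 0.09 log2 (adjusted p = 0.00556). Again the ratio did not pass with intron share as a covariate (-0.51 log2, adjusted p = 0.302).

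Sfpq, the most abundant DBHS gene in both fractions and genotypes (mm10 chr4:127021301-127031236, plus strand), showed no detectable genotype difference in its mRNA. Total RNA held 12.3 to 22.4 FPKM (median 15.8) in Nono-/- and 11.5 to 20.3 FPKM (median 15.4) in wild type, and the groups overlapped over most of their range. The difference was 0.01 ± 0.08 log2 (adjusted p = 0.965), with a 95% interval of -0.15 to 0.17 log2. Its nuclear introns were higher. They averaged 23.5 ± 3.46 FPKM in Nono-/- and 19.3 ± 2.21 FPKM in wild type, a difference of 0.30 ± 0.09 log2 (adjusted p = 0.0333, higher at 10 of 12 time points). The nuclear intron call was lost when ZT2, ZT6, ZT10, ZT12, ZT14, ZT18 or ZT22 was left out, with adjusted p of 0.0526 to 0.108, without a filter on low values (0.0613), with an added 12 h period (0.0576) and with intron share as a covariate (0.112). Sfpq exons in nuclear RNA had 25.9 ± 2.58 FPKM in Nono-/- and 23.5 ± 2.69 FPKM in wild type, a scaled difference of 0.35 ± 0.10 log2 (adjusted p = 0.00985) that was 0.14 log2 (adjusted p = 0.107) without scaling. The Sfpq intron entry reaches beyond the end of its exon entry, to position 127037014, so the 2 entries stand for different transcripts.

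Sfpq mRNA also followed the time of day in both genotypes. It was lowest at ZT6, with 12.3 FPKM in Nono-/- and 11.5 FPKM in wild type. It was highest early in the dark, at ZT14 in Nono-/- with 22.4 FPKM and at ZT16 in wild type with 20.3 FPKM. The fitted peak to trough was 0.59 ± 0.15 log2 in Nono-/-, with a peak at ZT15.8 ± 0.99 h (adjusted p = 0.0183), and 0.59 ± 0.15 log2 in wild type, with a peak at ZT16.5 ± 0.99 h (adjusted p = 0.0163). The rhythm difference had an adjusted p of 0.929. Sfpq nuclear introns showed no rhythm that passed, with adjusted p = 0.165 in Nono-/- and 0.477 in wild type. The rhythm call in total RNA was lost without ZT6, ZT14 or ZT16 in Nono-/- (adjusted p up to 0.0690) and without ZT6 or ZT16 in wild type (up to 0.0632).

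The make-up of the DBHS family was compared in each fraction. Nono, Sfpq and Pspc1 together summed to 21.2 ± 2.41 FPKM in Nono-/- total RNA and 28.4 ± 2.99 FPKM in wild-type total RNA. Pspc1 made up 25.9% ± 5.26 of this sum in Nono-/- and 10.46% ± 1.88 in wild type, and Sfpq 74.1% ± 5.23 in Nono-/- and 54.2% ± 4.76 in wild type. Nono made up 35.3% of the wild-type sum, so its loss alone raises both of these shares. The gain of Pspc1, 2.44 FPKM, came to 24.6% of the 9.93 FPKM of Nono that were lost. In wild-type nuclei Nono made up 7.95% of the sum. The nuclear sum was 32.7 ± 2.85 FPKM in Nono-/- and 32.2 ± 2.87 FPKM in wild type. The Pspc1 share was 20.8% ± 2.32 in Nono-/- nuclei and 19.0% ± 2.53 in wild-type nuclei. There the difference of the Pspc1 means, 0.688 FPKM, came to 27.0% of the 2.54 FPKM of Nono that were lost. These means are unscaled, and without scaling the nuclear Pspc1 difference did not pass (0.15 log2, limma adjusted p = 0.115). Nuclear Pspc1 was lower in Nono-/- than in wild type at ZT16, ZT18 and ZT22. Nuclear Sfpq stood at 25.9 FPKM in Nono-/- and 23.5 FPKM in wild type.

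The Pspc1 to Sfpq ratio was tested in 3 measures with a two-sided permutation test of 100000 resamples, adjusted over the 3. In total exons the ratio averaged 0.347 in Nono-/- and 0.196 in wild type, a difference of 0.82 log2 that was higher at 11 of 12 time points (permutation adjusted p = 0.00012). In nuclear exons it was 0.264 in Nono-/- and 0.262 in wild type (0.01 log2, permutation adjusted p = 0.899). Nuclear introns gave 0.139 in Nono-/- and 0.132 in wild type (0.08 log2, permutation adjusted p = 0.409). This ratio does not depend on the scaling of a library, and its difference passed in 1 of the 3 measures, total exons.

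**Figure D2:**
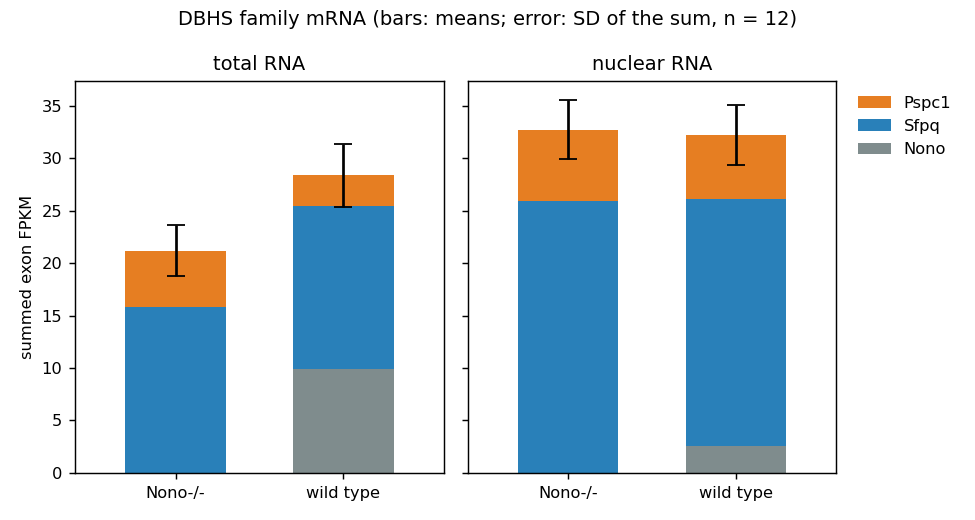
Mean exon FPKM of Nono (grey), Sfpq (blue) and Pspc1 (orange) stacked for Nono-/- and wild type in total and nuclear RNA, with the SD of the sum over 12 pools as the error bar. The sum is 21.2 FPKM in Nono-/- and 28.4 FPKM in wild type in total RNA, and 32.7 FPKM in Nono-/- and 32.2 FPKM in wild type in nuclear RNA.

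Neat1 is the noncoding RNA on which paraspeckles are built (mm10 chr19:5842296-5845480, minus strand, the table's entry of 3184 bases). That entry covers the 5′ region that the short and the long form share, so the forms were not told apart. Neat1 was the most abundant of the 7 genes and by far the most uneven between pools. Total RNA held 25.2 to 135 FPKM (median 71.7) in Nono-/- and 34.5 to 114 FPKM (median 54.4) in wild type. Nuclear RNA held 143 to 549 FPKM (median 257) in Nono-/- and 139 to 690 FPKM (median 222) in wild type, and the genotypes overlapped in both fractions. The coefficient of variation was 37.5% in Nono-/- and 42.8% in wild type in total RNA, against 6.75% and 6.70% for Tardbp in Nono-/- and wild type.

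The Neat1 difference was 0.29 ± 0.22 log2 in total RNA (adjusted p = 0.430, 95% interval -0.17 to 0.76) and 0.25 ± 0.21 log2 in nuclear RNA (adjusted p = 0.349, 95% interval -0.18 to 0.69). With intron share as a covariate, the total RNA value was 1.04 log2 with adjusted p = 0.0448, and in the other fits run Neat1 did not pass in total or nuclear exons. Single pools stood out. The ZT4 pool was the highest of the Nono-/- group in both fractions, with 135 FPKM in total and 549 FPKM in nuclear RNA, and the ZT14 pool was the lowest in both, with 25.2 FPKM and 143 FPKM. In wild type the highest nuclear value, 690 FPKM, came at ZT12 and the highest total value, 114 FPKM, at ZT18. The nuclear to total ratio of Neat1 averaged 3.85 ± 0.966 in Nono-/- and 4.85 ± 1.77 in wild type and was the highest of the members other than Nono in both genotypes (difference -0.04 ± 0.17 log2, adjusted p = 0.876). Malat1, a nuclear noncoding RNA encoded next to Neat1, had 3054 ± 316 FPKM in Nono-/- nuclei and 2325 ± 303 FPKM in wild-type nuclei, a difference of 0.61 ± 0.13 log2 (adjusted p = 0.00306; 0.40 log2 and 0.0373 without scaling). In total RNA Malat1 differed by 0.11 log2 (adjusted p = 0.534).

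**Figure D3:**
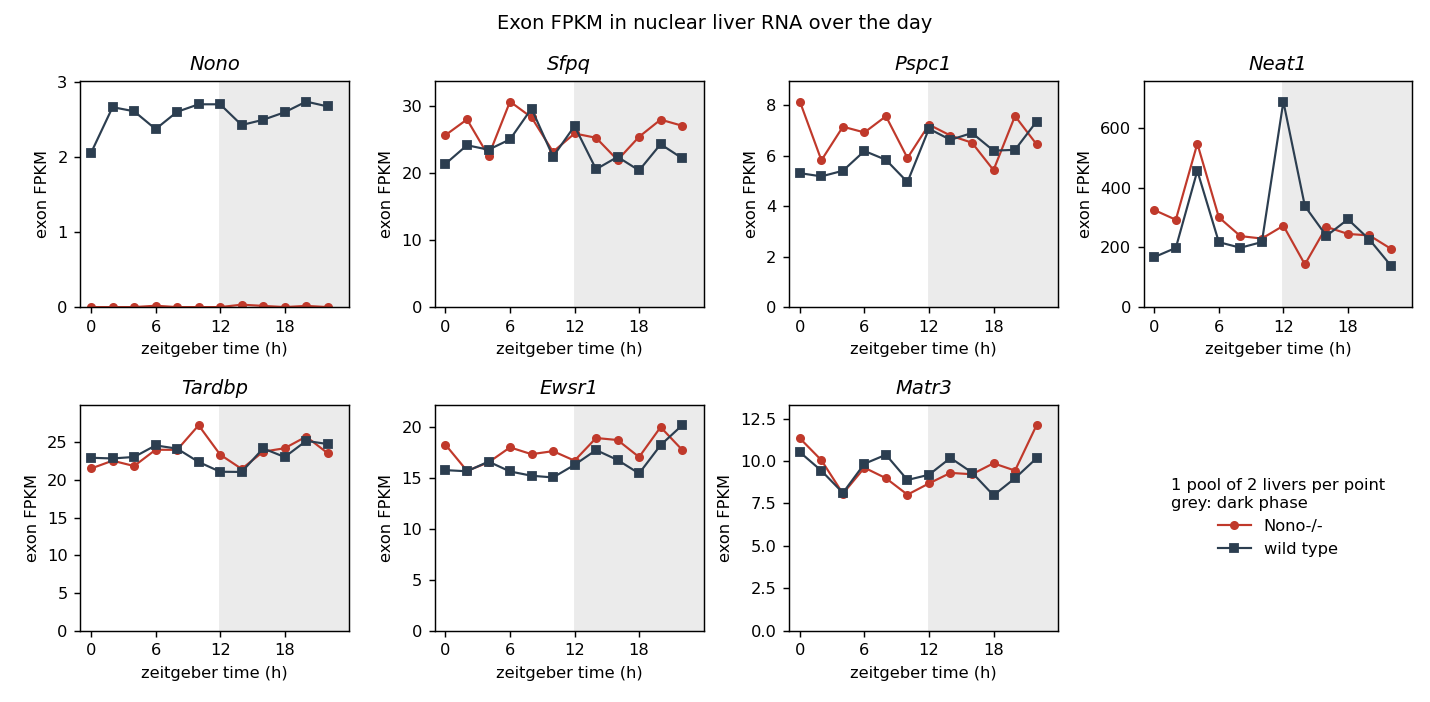
Exon FPKM of the 7 genes in nuclear liver RNA at each zeitgeber time (x axis, hours), with Nono-/- in red and wild type in dark blue and 1 pool of 2 livers per point. Neat1 ranges from 143 to 549 FPKM in Nono-/- and from 139 to 690 FPKM in wild type, and the genotypes overlap for all genes but Nono.

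Tardbp and Ewsr1 encode RNA-binding proteins, the first also known as TDP-43, a regulator of splicing, and the second a regulator of transcription and splicing. Their mRNA did not pass the genotype test in total RNA. Tardbp (mm10 chr4:148612382-148626996, minus strand) had 18.3 to 22.5 FPKM (median 19.3) in Nono-/- and 18.9 to 23.7 FPKM (median 20.8) in wild type, a difference of -0.09 ± 0.06 log2 (adjusted p = 0.406, 95% interval -0.22 to 0.04). Ewsr1 (mm10 chr11:5080078-5099088, minus strand) had 6.32 to 8.92 FPKM (median 8.26) in Nono-/- and 7.24 to 8.85 FPKM (median 8.22) in wild type, a difference of -0.05 ± 0.07 log2 (adjusted p = 0.676, 95% interval -0.20 to 0.09). The coefficient of variation of Ewsr1 in total RNA was 10.2% in Nono-/- and 6.39% in wild type.

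In nuclear exons both were higher relative to the median gene. Ewsr1 had 17.8 ± 1.18 FPKM in Nono-/- and 16.6 ± 1.51 FPKM in wild type (0.31 ± 0.06 log2, adjusted p = 0.00259, higher at 11 of 12 time points). Tardbp had 23.6 ± 1.70 FPKM in Nono-/- and 23.3 ± 1.35 FPKM in wild type (0.23 ± 0.08 log2, adjusted p = 0.0336). With Pspc1 and Sfpq, 4 of the 6 genes other than Nono passed in nuclear exons, all higher, against 34.3% of 10500 genes, 15.9% higher and 18.5% lower. None of the 4 passed without scaling, where Ewsr1 differed by 0.10 log2 (adjusted p = 0.157) and Tardbp by 0.02 log2 (adjusted p = 0.808). The Tardbp call in nuclear exons was also lost when ZT2, ZT6, ZT10, ZT12, ZT18, ZT20 or ZT22 was left out, with adjusted p of 0.054 to 0.0889, and without a filter (0.0503). With intron share as a covariate the calls of Tardbp (0.14 log2, adjusted p = 0.237) and Sfpq (0.26 log2, adjusted p = 0.0824) in nuclear exons were lost.

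**Figure D4:**
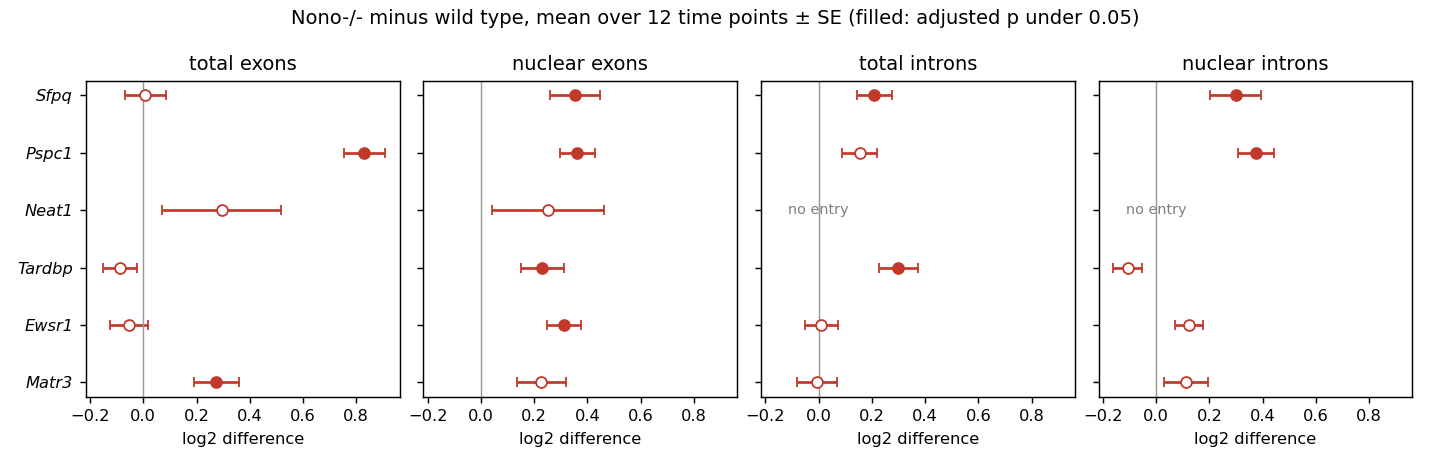
Difference in log2 FPKM between Nono-/- and wild type (x axis, Nono-/- minus wild type) for 6 genes in the exons and introns of total and nuclear RNA. Points are means over 12 time points, bars are SE, and filled points passed at an adjusted p under 0.05. Pspc1 in total exons, at 0.83, is farthest from 0, and Neat1 has no intron entry.

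The nuclear to total ratio passed for 3 of the 6 genes, against 19.8% of 9871 genes, 10.8% higher and 9% lower. Besides Pspc1, which was lower, Ewsr1 and Tardbp were higher. The ratio of Ewsr1 averaged 2.24 ± 0.252 in Nono-/- and 2.05 ± 0.269 in wild type (0.37 ± 0.10 log2, adjusted p = 0.0213). That of Tardbp averaged 1.202 ± 0.0737 in Nono-/- and 1.13 ± 0.0691 in wild type (0.32 ± 0.09 log2, adjusted p = 0.0254). Neither passed with each time point as a block, with adjusted p = 0.0513 for Ewsr1 and 0.0526 for Tardbp. The Ewsr1 call was lost without ZT6, ZT8 or ZT18 (up to 0.0628) and the Tardbp call without ZT2, ZT6, ZT8, ZT12 or ZT22 (up to 0.0744). Without scaling, the Ewsr1 ratio differed by 0.13 log2 (adjusted p = 0.223) and the Tardbp ratio by 0.08 log2 (adjusted p = 0.277). Sfpq differed by 0.35 ± 0.13 log2 and did not pass (adjusted p = 0.0614).

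**Figure D5:**
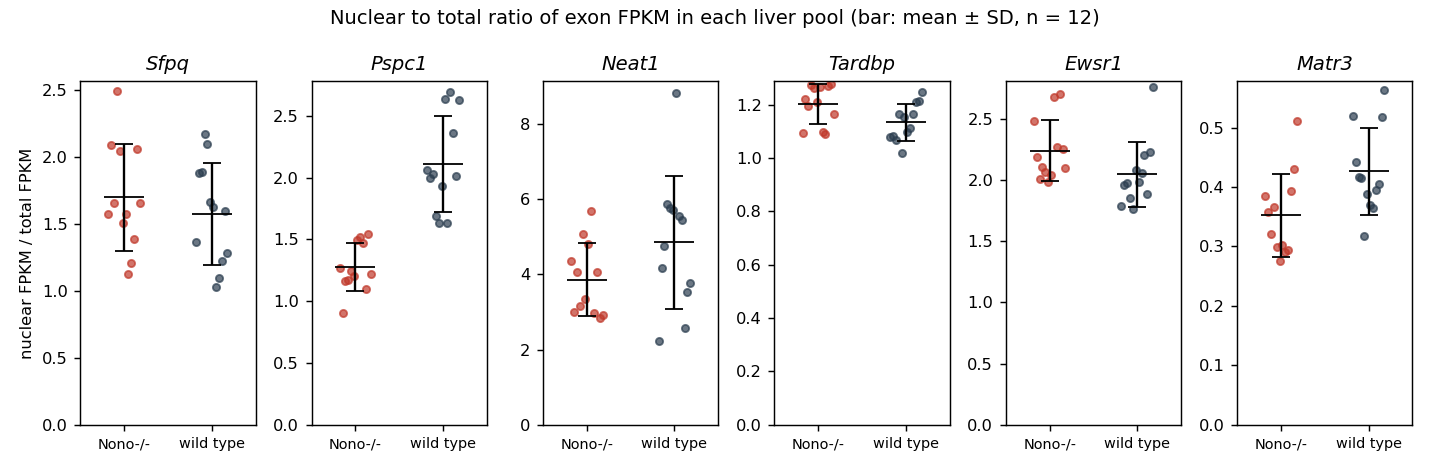
Nuclear FPKM divided by total FPKM of the same liver pool (y axis) for 6 genes, with Nono-/- left of wild type. Points are 12 pools per genotype and bars are the mean and SD of the deposited values. Pspc1 averages 1.28 in Nono-/- and 2.11 in wild type, and Matr3 lies below 1 in all pools.

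Introns of Tardbp and Ewsr1 gave a mixed picture. Tardbp introns in total RNA were 3.21 ± 0.465 FPKM in Nono-/- and 3.15 ± 0.671 FPKM in wild type, which after scaling was 0.30 ± 0.07 log2 (adjusted p = 0.0104) and without scaling 0.04 log2 (adjusted p = 0.690). Sfpq introns in total RNA also passed, with 0.21 ± 0.07 log2 (adjusted p = 0.0367), but the sign turned to -0.0493 log2 without scaling, the adjusted p was 0.0585 with each time point as a block, and it was 0.0562 to 0.0935 when ZT0, ZT2, ZT4, ZT6, ZT10, ZT12, ZT14, ZT18 or ZT20 was left out. Without scaling, Matr3 introns in total RNA were lower and passed (-0.25 log2, adjusted p = 0.0464), and Pspc1 and Ewsr1 had negative values that did not pass (-0.09 and -0.24 log2). In all, 2 of 5 genes passed in total introns, both higher, against 16% of 9422 genes, 7.11% higher and 8.87% lower. In nuclear introns Tardbp had 4.35 ± 0.341 FPKM in Nono-/- and 4.77 ± 0.470 FPKM in wild type (-0.11 ± 0.06 log2, adjusted p = 0.170), and Ewsr1 5.63 ± 0.278 FPKM in Nono-/- and 5.25 ± 0.301 FPKM in wild type (0.12 ± 0.05 log2, adjusted p = 0.106). On the minus strand, the intron entry of Ewsr1 reaches to position 5069687, beyond its exon entry, which ends at 5080078. The 2 Ewsr1 entries thus stand for different transcripts. The intron entry of Tardbp overlaps that of Masp2 on the other strand, a liver gene of the complement system, and the headers give no strand option, so reads of the 2 genes cannot be told apart there. The exon entry of Tardbp, from position 148612382, also reaches into the span of the Masp2 intron entry, chr4:148602544-148615480. The same limit thus holds for the Tardbp exon values and ratios above. Masp2 introns had 13.5 ± 2.42 FPKM in Nono-/- nuclei and 13.9 ± 1.22 FPKM in wild-type nuclei.

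Matr3 encodes matrin 3, a protein of the nuclear matrix that binds RNA and DNA (mm10 chr18:35562158-35592045, plus strand). Total RNA held 21.955 to 31.999 FPKM (median 28.3) in Nono-/- and 17.4 to 32.7 FPKM (median 22.1) in wild type. The groups overlapped. The lowest Nono-/- pool, at ZT20, lay below the wild-type pools of ZT6, ZT8, ZT10, ZT12, ZT14 and ZT16, and the wild-type pool at ZT8 was the highest of all with 32.7 FPKM. The difference was 0.27 ± 0.08 log2 (adjusted p = 0.0402), higher at 11 of 12 time points. It stood close to the threshold, since leaving out any time point but ZT8 ended the call, with adjusted p of 0.0522 to 0.0970, and the adjusted p was 0.0676 without a filter and 0.287 with intron share as a covariate. Matr3 exons in nuclear RNA were 9.55 ± 1.199 FPKM in Nono-/- and 9.41 ± 0.837 FPKM in wild type (0.23 ± 0.09 log2, adjusted p = 0.0613), and nuclear introns did not pass (0.11 ± 0.08 log2, adjusted p = 0.341). The nuclear to total ratio, 0.352 ± 0.0697 in Nono-/- and 0.426 ± 0.0727 in wild type, was close to that of the median gene and did not pass (-0.05 ± 0.10 log2, adjusted p = 0.752), but without scaling it was lower in Nono-/- and passed (-0.28 log2, adjusted p = 0.0142).

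Matr3 mRNA had a daily rhythm that passed in wild type, with a peak to trough of 0.60 ± 0.17 log2 and a peak at ZT10.04 ± 1.09 h (adjusted p = 0.0292). In Nono-/- the peak to trough was 0.31 ± 0.17 log2 with a fitted peak at ZT11.7 (adjusted p = 0.318). The difference between these rhythms did not pass (adjusted p = 0.645), so the rhythms are not shown to differ. The wild-type call was lost without ZT8, ZT14, ZT20 or ZT22 (adjusted p up to 0.115), without a filter (0.0507) and with an added 12 h period (0.122). Over the 6 genes, 1 was rhythmic in Nono-/- total exons, against 29.6% of 11352 genes, and 2 in wild type, against 31.8%. A difference in rhythm passed for 0 of 6 genes and for 0% of all genes by limma, while 1210 of all genes had an unadjusted p under 0.05 and none of the 6 did. In nuclear introns 0 of 5 genes were rhythmic in Nono-/-, against 32% of 12055 genes, and 0 of 5 in wild type, against 21%. There 0% of all genes differed in rhythm, 811 had an unadjusted p under 0.05, and Pspc1 was among them with p = 0.0313 (adjusted p = 0.726 by limma). Rhythm in total introns was not a planned comparison, and no share of all genes is given for it. Tardbp, whose intron entry overlaps that of Masp2, passed there in both genotypes. Its peak to trough was 0.61 ± 0.15 log2 in Nono-/- (adjusted p = 0.0203) and 0.73 ± 0.15 log2 in wild type (adjusted p = 0.00738). The rhythm difference did not pass (adjusted p = 0.959).

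The order of the genes by exon FPKM, a level per length, was set side by side in the groups. In Nono-/- total RNA it ran from Neat1 (75.3) over Matr3 (27.6), Tardbp (19.7), Sfpq (15.8) and Ewsr1 (7.99) to Pspc1 (5.39). In wild-type total RNA it ran from Neat1 (60.7) over Matr3 (22.6), Tardbp (20.6), Sfpq (15.5), Nono (9.95) and Ewsr1 (8.15) to Pspc1 (2.95). The ranges of Matr3 and Tardbp overlapped in both genotypes, and so did those of Tardbp and Sfpq and, in wild type, those of Nono and Ewsr1, so these neighbours lie within each other's spread. In wild type the ranges of Ewsr1 and Pspc1 did not meet, and in Nono-/- they overlapped, with Pspc1 at up to 6.45 FPKM and Ewsr1 down to 6.32 FPKM.

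A list of 30 other proteins reported in paraspeckles was read beside these genes. In total exons 1 of 30 was higher in Nono-/-, 4 were lower and 25 did not pass, where 4.49% of all genes were higher and 6.57% lower, with a median difference of -0.10 log2 against 0.00 over all genes. Hnrnpf, a splicing factor, rose by 0.28 ± 0.09 log2 (adjusted p = 0.0446). Those that fell were Rbm3, a cold-inducible RNA-binding protein (-0.39 ± 0.12 log2, adjusted p = 0.0373), Ss18l1, a subunit of chromatin remodelling complexes (-0.29 ± 0.09 log2, adjusted p = 0.0365), Hnrnpul1 (-0.23 ± 0.07 log2, adjusted p = 0.0422) and Ubap2l (-0.19 ± 0.06 log2, adjusted p = 0.0317). Rbm3 and Ss18l1 also passed with each time point as a block (adjusted p = 0.0388 and 0.0393) and without scaling (0.0278 and 0.0335). Hnrnpf, Hnrnpul1 and Ubap2l did not, with 0.0589, 0.0656 and 0.0734 under the block and 0.0837, 0.132 and 0.0765 without scaling. The values of all 30 in total exons lay between -0.39 and 0.33 log2. With intron share as a covariate 0 of them passed in total exons, and with 1 time point left out 0 to 1 were higher and 0 to 4 lower, 0 in all without ZT4, ZT12 or ZT14.

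In nuclear introns 6 of the 30 were higher, 2 were lower and 22 did not pass, where 8.48% of all genes were higher and 9.46% lower, with a median of 0.07 log2 against 0.00 over all genes. Hnrnpr rose by 0.24 ± 0.06 log2 (adjusted p = 0.0132), Cpsf6, a subunit of the cleavage factor that sets poly(A) sites, by 0.28 ± 0.08 log2 (adjusted p = 0.0206), Rbm14, a protein needed for paraspeckle assembly, by 0.23 ± 0.07 log2 (adjusted p = 0.0207), and Rbmx by 0.30 ± 0.10 log2 (adjusted p = 0.0419). Dazap1 fell by 0.40 ± 0.09 log2 (adjusted p = 0.0068) and Ss18l1 by 0.25 ± 0.08 log2 (adjusted p = 0.0399). Without scaling 4 were higher and 1 was lower, and with intron share as a covariate 1 was higher and 1 was lower. Leaving out 1 time point gave 1 (without ZT6) to 8 (without ZT0) higher and 1 to 3 lower.

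The counts in nuclear exons turned with the scaling. With scaling, 6 of 28 tested were higher and 3 were lower, where 15.9% of all genes were higher and 18.5% lower. The median was 0.09 log2 with scaling, and without it 2 were higher and 6 were lower, with a median of -0.12 log2. The median gene itself shifted by -0.21 log2 without scaling, so the unscaled counts follow that shift. Cpsf6 was higher in both forms, by 0.45 ± 0.11 log2 scaled (adjusted p = 0.00731) and 0.24 log2 unscaled (adjusted p = 0.0202), and so was Hnrnpr, by 0.39 ± 0.10 log2 scaled (adjusted p = 0.00774) and 0.18 log2 unscaled (adjusted p = 0.0191). Rbmx was higher by 0.36 ± 0.08 log2 scaled (adjusted p = 0.0032) and did not pass unscaled (0.15 log2, adjusted p = 0.12). Dazap1 (-0.35 ± 0.09 log2), Hnrnpul1 (-0.27 ± 0.06 log2) and Smarca4, an ATPase of chromatin remodelling (-0.58 ± 0.16 log2), were lower in both forms. Of 29 tested in total introns 1 was higher and 2 were lower with scaling (7.11% and 8.87% of all genes), and 0 were higher and 10 lower without it. Of all 9422 genes, 102 were higher and 3444 lower in total introns without scaling, so the lower count is not particular to the list.

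For the nuclear to total ratio, 9 of 28 were higher and 0 lower, where 10.8% of all genes were higher and 9% lower, with a median of 0.23 log2 against 0.02 over all genes. These 9 included Taf15, an RNA-binding protein related to Ewsr1 (0.32 ± 0.11 log2, adjusted p = 0.038), which was picked out after its values were seen and did not pass without scaling (0.09 log2, adjusted p = 0.360). The count rested on the fit, since it was 0 higher and 2 lower without scaling (median 0.00 log2), 2 higher and 0 lower with each time point as a block, and 0 with intron share as a covariate. It was also 0 without ZT8, 1 without ZT22 and 2 without ZT2, ZT6, ZT12, ZT16 or ZT18, and 5 to 9 without 1 of the other time points. The exon to intron ratio of Rbm14 was lower in Nono-/- (-0.43 ± 0.13 log2, adjusted p = 0.0425), and did not pass without scaling (-0.39 log2, adjusted p = 0.0782).

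Genes whose profile was most like that of a member were taken from the 24 total RNA libraries by Pearson's r of log2 values, as a description over libraries that share time points and genotypes. Pspc1 was most like Car1 (r = 0.875), Spryd4 (r = 0.855) and Tstd1 (r = 0.821), and each of these was itself higher in Nono-/-, Car1 by 1.17 log2, Tstd1 by 0.63 log2 and Spryd4 by 0.23 log2. Sfpq was most like Senp2 (r = 0.901), Top1 (r = 0.890) and Nus1 (r = 0.888), none of which passed the genotype test. For Matr3 the closest were Itgb1 (r = 0.936), Ugt2b5 (r = 0.935) and Mtx2 (r = 0.933). Tardbp was closest to Ttc14 (r = 0.883), 1810026B05Rik (r = 0.883) and Pds5a (r = 0.868), and Ewsr1 to Gm20199 (r = 0.810), Rufy2 (r = 0.783) and Cdk12 (r = 0.755). Neat1 had the lowest values at this rank, with Cdc42ep5 (r = 0.675), Btg2 (r = 0.671) and Pisd-ps1 (r = 0.642).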

How the data were processed

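Livers were grouped by genotype, RNA fraction and time from the sample labels. Per the file headers, the authors computed FPKM over exons or introns with HOMER's analyzeRepeats.pl on mm10, isoforms condensed to 1 entry a gene; the headers name no strand option. The submitters' processing notes name FastQC 0.11.2 and STAR 2.4.0k. All 96 deposited columns were used, and 0 of 1128 pairs of libraries were identical. Depths covering counting error only were read from whole-read steps (all values whole within 0.1 read).

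Libraries were scaled by the median of their gene-wise ratios to a geometric mean profile of the same fraction, and log2(FPKM + 0.1) for exons or log2(FPKM + 0.05) for introns was tested, for genes with a mean of at least 0.5 or 0.1 FPKM. Such differences understate those of low genes. The limma 3.58.1 model (R 4.3.3, trend) held genotype, cosine and sine of 24 h and their products, with Benjamini-Hochberg adjustment over all genes and a threshold of 0.05. No time point has replicates, so p-values measure the spread between pools around a daily curve. Deviations of the genotypes at the same time correlated above 0.1 in 12 of 12 pairs (nuclear exons 11 of 12), so a fit with time point as a block was an alternative. Ratios used SciPy 1.17.1 permutations. The limma model was tested on simulated data whose errors were independent between libraries. That test thus did not cover the correlation of the genotypes at the same time. Members and lists were chosen with earlier results of these data known. Named were the 7 members, up to 6 other paraspeckle proteins with the smallest adjusted p in total exons, nuclear exons and nuclear introns, the 3 genes most like each member and Malat1.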

Additional observations from a re-analysis of the deposited data

Results flagged for a closer look

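In 4 results the genotypes differed in how 2 measures of the same gene related to each other, by a test of the difference itself. The nuclear to total ratio of Pspc1 was lower in Nono-/- by -0.47 log2, that of Ewsr1 was higher by 0.37 log2 and that of Tardbp was higher by 0.32 log2. The ratio of total exons to nuclear introns of Pspc1 was higher by 0.46 log2. Intron share moved with genotype in total RNA, at 18.5% in Nono-/- and 22.1% in wild type, and none of the 4 passed with it as a covariate. The Pspc1 values were then -0.51 log2 for the nuclear to total ratio (adjusted p = 0.302) and 0.55 log2 for the exon to intron ratio (adjusted p = 0.116), no smaller than without it. Those of Ewsr1 and Tardbp were smaller, 0.07 log2 (adjusted p = 0.932) and 0.14 log2 (adjusted p = 0.858). Its part in these results was not tested further.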

How the results depend on the processing

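The Pspc1 difference in total exons passed under every alternative run, and the rhythm differences stayed at 0 genes. The numbers of genes other than Nono that passed moved elsewhere. Counts over all genes under the same fits are given below only in part, so these moves are not read as particular to the members. Without a filter, 1 passed in total exons, total introns, nuclear introns and the wild-type rhythm. Without scaling, 0 passed in nuclear exons, 1 in total introns and 2 in the Nono-/- rhythm of total exons; the 1 in total introns was Matr3, lower by -0.255 log2, while Sfpq and Tardbp did not pass. Matr3 then also passed as lower in the nuclear to total ratio (-0.28 log2). In total introns Sfpq turned to -0.0493 log2, Pspc1 to -0.086 log2 and Ewsr1 to -0.241 log2. With time point as a replicate block, 1 passed in total introns and 1 in the nuclear to total ratio; the block kept the side of the threshold of the other counts. With 24 h and 12 h periods, 1 passed in total introns, nuclear introns and the wild-type rhythm. With intron share as a covariate, 0 passed in total introns, the nuclear to total ratio and the exon to intron ratio, 1 in nuclear introns and their Nono-/- rhythm, and 2 in nuclear exons and the Nono-/- rhythm of total exons; Neat1 was then 1.04 log2 in total exons. Signs also turned, below the threshold, for Sfpq (-0.00712), Tardbp (0.0726) and Ewsr1 (0.177) in total exons, Matr3 in total introns (0.0398) and the exon to intron ratio of Ewsr1 (0.0636). Leaving out 1 time point gave 1 to 2 genes in total exons, total introns, nuclear introns and the wild-type rhythm, 3 to 5 in nuclear exons, 1 to 4 in the nuclear to total ratio, 0 to 1 in both Nono-/- rhythms, and 1 each for the exon to intron ratio and the Pspc1 to Sfpq ratios. The near-zero Pspc1 to Sfpq difference in nuclear exons changed sign with a 10 times larger pseudocount (-0.00193 log2) and when a time point was left out (-0.0285 to 0.0588 log2); the paired sign-flip block changed no call of the 3 ratios. Other near-zero differences that changed sign without a time point, none past the threshold, were Sfpq in total exons (-0.027 to 0.0439), Ewsr1 (-0.0257 to 0.0398) and Matr3 (-0.0344 to 0.0376) in total introns, Matr3 (-0.103 to 0.0215) and Neat1 (-0.153 to 0.0297) in the nuclear to total ratio, and Tardbp in the exon to intron ratio (-0.021 to 0.0549). The causes were not tested.

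Counts over all genes moved too. With intron share they were 23 in total exons, 1048 in nuclear exons, 26 in total introns, 965 in nuclear introns, 5 for the nuclear to total and 7 for the exon to intron ratio, against 1256, 3603, 1506, 2163, 1954 and 812. Without scaling, 3546 passed in total introns (102 higher, 3444 lower). The nuclear to total count was 1295 without a filter and 1171 with the block. With 24 h and 12 h periods, 1892 genes were rhythmic in Nono-/- nuclear introns, 1219 in those of wild type and 2119 in wild-type total exons. Leaving out 1 time point gave 734 to 1300 in total exons, 2158 to 4569 in nuclear exons, 770 to 1846 in total introns, 1124 to 2950 in nuclear introns, 635 to 3435 and 301 to 1246 for the 2 ratios, and 2533 to 4534 rhythmic in Nono-/- and 1655 to 2498 in wild-type nuclear introns.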
